A study of Mus musculus with 6 samples.

Results

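Calcineurin, its regulators and the NFAT transcription factors were examined as a group of 10 genes, taken by gene symbol from the 21667 named genes in the expression tables of the somatosensory cortex. The members are the catalytic subunit genes *Ppp3ca*, *Ppp3cb* and *Ppp3cc*, the regulatory subunit gene *Ppp3r1*, the regulators *Rcan1* and *Rcan2*, and the NFAT genes *Nfatc1*, *Nfatc2*, *Nfatc3* and *Nfatc4*. All 10 members were found in all 6 tables. PolyA-selected RNA was sequenced from 3 control and 3 *Mef2c* cKO male mice of a mixed SVeV-129; C57BL/6J strain. All 6 mice were homozygous for floxed *Mef2c*. The *Mef2c* cKO mice also carried Cre inserted into *Emx1*, which is active from embryonic stages in most excitatory neurons of the neocortex and hippocampus and in some forebrain glia, so the tissue also holds cells in which *Mef2c* was not deleted. The controls were Cre-negative littermates with the same floxed alleles. Replicate 1 of each genotype was 14 weeks old, and replicates 2 and 3 were 12 weeks old.

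Calcineurin is a phosphatase that is switched on by calcium and calmodulin, and it is composed of a catalytic A subunit and a small calcium-binding B subunit. In neurons it removes phosphate from channels, receptors and vesicle proteins, and it dephosphorylates cytoplasmic NFAT, which then enters the nucleus and binds DNA. Rcan proteins bind calcineurin and can inhibit it, and calcineurin also dephosphorylates MEF2 factors.

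The measurements are whole reads per gene, recovered from the deposited RPKM values and divided by the total of the sample (CPM, scaled to a fixed number of reads per sample). Totals ranged from 19326365 reads in *Mef2c* cKO replicate 2 to 54128334 reads in *Mef2c* cKO replicate 3. The deposited values of a member could not be compared between mice directly, because the length each was divided by differed from table to table. For *Ppp3r1* the highest deposited RPKM in the controls was 93.0 times the lowest, whereas the highest CPM was 1.14 times the lowest. Log2(CPM + 0.1) was compared between genotypes with limma, and a gene was called when its Benjamini-Hochberg adjusted p-value over all 14619 tested genes was under 0.05 and its log2 fold change was beyond 0.3 in either direction. Over the tested genes, mice of the same genotype correlated at Pearson's r of 0.992 to 0.995, and mice of different genotypes at 0.978 to 0.981. The reads on *Mef2c* itself were higher in the mice labelled *Mef2c* cKO, at 1325 ± 126 CPM (SD, n = 3) against 791 ± 16.4 CPM in controls. These reads are counted over the whole gene, including exons outside the floxed part, so they do not check the deletion. *Emx1*, the gene that carries Cre, was at 5.26 ± 0.397 CPM in *Mef2c* cKO mice and at 18.5 ± 1.92 CPM in controls.

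All 10 members passed the filter on low values and were tested. Of these, 2 were called lower in *Mef2c* cKO cortex, *Rcan2* and *Nfatc2*, and 0 were called higher. At an unadjusted p-value under 0.05 from limma, 3 members were lower (also *Ppp3cc*) and 1 was higher (*Ppp3r1*), and voom weights, tried as an alternative, called the same count of 2. Over all tested genes 7.78% were called lower and 5.88% higher, beside 20% and 0 of the members, and 10 genes are few to set against that background. *Rcan2* fell to about 0.517 times its control level and kept its call in all 18 alternative fits on the recovered reads. The call on *Nfatc2* was close to the cut-off and was lost in 9 of the 18. In 7 members the values of the genotypes did not overlap, with 5 lower and 2 higher in *Mef2c* cKO mice. The share of tested genes without overlap was 17.5% in the lower and 16.3% in the higher direction. With 3 mice against 3, an exact permutation test of a single gene cannot go below p = 0.1, so calls rest on limma's estimate of the spread across genes.

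**Figure D1:**
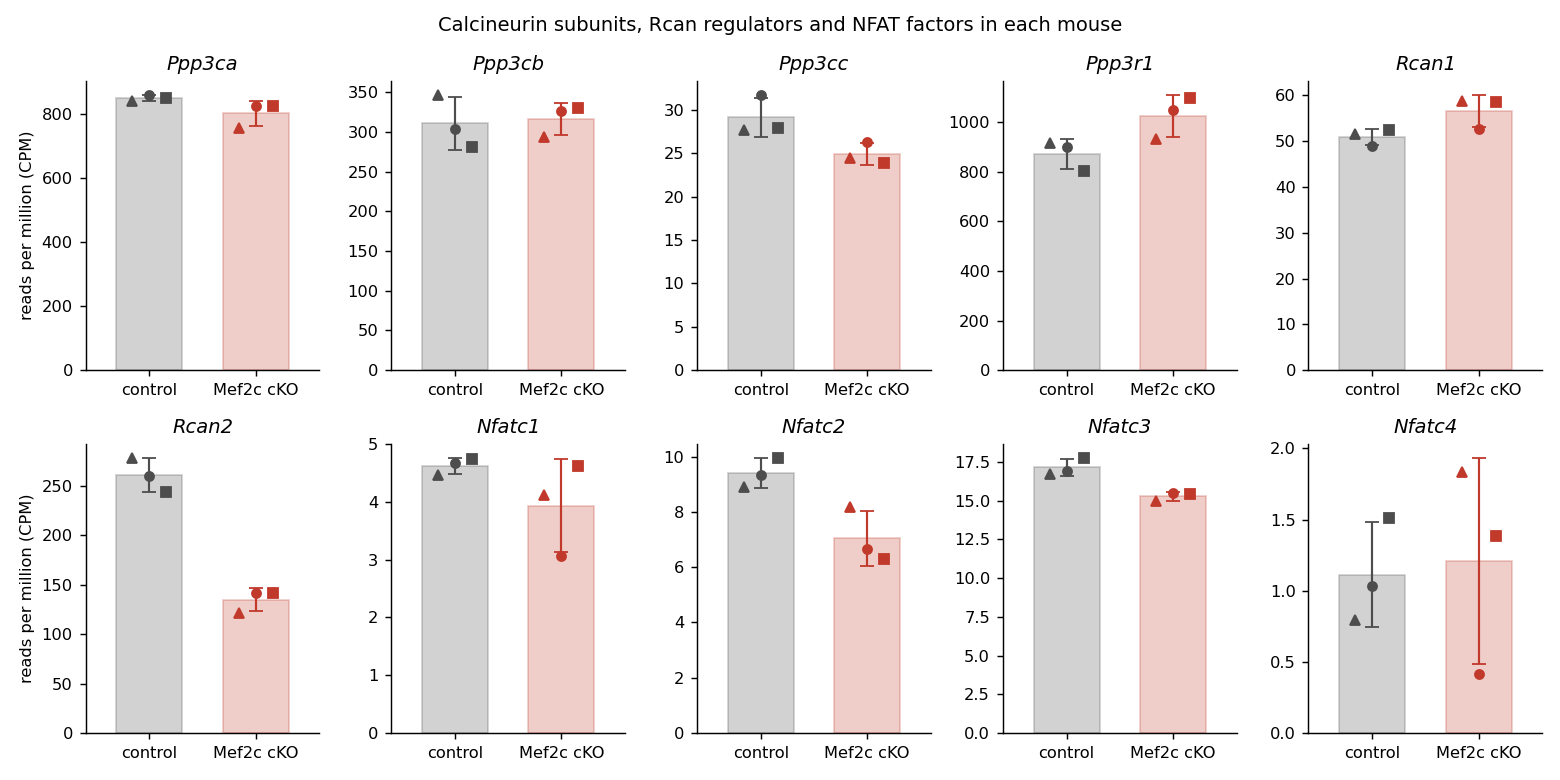
CPM of each member in each mouse, with bars at the mean of 3 mice and error bars of 1 SD. Triangles are replicate 1 (14 weeks), circles and squares replicates 2 and 3 (12 weeks). The *Mef2c* cKO mice lie between 122 and 142 CPM for *Rcan2*, below the controls at 244 to 279 CPM, whereas the points for *Ppp3cb*, *Nfatc1* and *Nfatc4* overlap.

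The promoter sequences of *Rcan1*, *Rcan2* and *Nfatc2* are shown because *Rcan2* and *Nfatc2* were the members called below, *Rcan1* is a known target of NFAT, and NFAT and MEF2 factors bind short motifs. They are the 250 bases before a transcription start listed by RefSeq (build GRCm38.p6), which were placed in NCBIM37 (mm9), the build of the study, by exact match. Of the 10 members, 7 had 12 such entries. Capitals mark the NFAT core GGAAA and, in *Rcan1*, the cyclic AMP response element TGACGTCA, each searched on both strands, and in the sequences shown their matches did not overlap. The first *Rcan1* promoter (chr16:92466415-92466664, minus strand) precedes the first exon, and the second (chr16:92400324-92400573, minus strand) lies within the gene. Of the 3 *Rcan2* entries (plus strand), the first, at chr17:43938051-43938300, and the last, at chr17:44089698-44089947, are shown. The middle entry, at chr17:43938550-43938799, lies directly before the gene start in the gencode annotation and is not printed. Of the 2 *Nfatc2* entries (minus strand), the first, at chr2:168427158-168427407, is shown, and the second is at chr2:168415866-168416115.
Rcan1, first promoter: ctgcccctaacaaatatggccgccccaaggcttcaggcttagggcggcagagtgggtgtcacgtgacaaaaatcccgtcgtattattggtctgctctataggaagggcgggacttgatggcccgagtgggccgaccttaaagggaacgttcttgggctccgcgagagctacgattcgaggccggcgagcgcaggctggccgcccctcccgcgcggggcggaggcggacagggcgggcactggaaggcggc
Rcan1, internal promoter: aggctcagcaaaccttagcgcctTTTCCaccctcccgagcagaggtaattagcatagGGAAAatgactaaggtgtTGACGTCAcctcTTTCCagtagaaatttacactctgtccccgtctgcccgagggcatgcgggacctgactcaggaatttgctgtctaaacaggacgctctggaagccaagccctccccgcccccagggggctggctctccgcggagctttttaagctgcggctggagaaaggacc
Rcan2, first promoter: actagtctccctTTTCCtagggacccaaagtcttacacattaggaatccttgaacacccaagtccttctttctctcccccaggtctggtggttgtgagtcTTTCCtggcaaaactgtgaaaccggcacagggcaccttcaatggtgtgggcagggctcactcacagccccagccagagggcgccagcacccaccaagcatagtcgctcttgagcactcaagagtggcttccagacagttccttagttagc
Rcan2, last promoter: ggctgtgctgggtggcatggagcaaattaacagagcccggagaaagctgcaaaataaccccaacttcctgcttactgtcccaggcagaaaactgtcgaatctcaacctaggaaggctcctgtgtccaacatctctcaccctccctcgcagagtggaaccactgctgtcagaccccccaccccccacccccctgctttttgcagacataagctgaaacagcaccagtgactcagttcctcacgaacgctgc
Nfatc2, first promoter: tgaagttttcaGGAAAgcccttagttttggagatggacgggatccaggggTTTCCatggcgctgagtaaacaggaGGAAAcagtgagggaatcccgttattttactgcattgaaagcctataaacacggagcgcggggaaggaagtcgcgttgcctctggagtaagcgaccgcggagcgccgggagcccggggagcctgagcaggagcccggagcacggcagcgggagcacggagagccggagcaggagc

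The internal *Rcan1* promoter, which is known to respond to calcineurin and NFAT, held 3 NFAT cores and the only TGACGTCA among the 12 entries. The first *Rcan2* promoter held 2 NFAT cores, and the middle and last *Rcan2* promoters held 0. The first *Nfatc2* promoter held 3 and the second held 1. The core is short and common, with a match in 55.6% of all 32851 promoters of the same length, and 7 of the 12 entries of the members held it. TGACGTCA was found in 1.55% of all promoters. The MEF2 site, searched by its known consensus on both strands, was found in 2.92% of all promoters and in 0 of the 12 entries, which says only that these letters are not in these windows.

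Among the catalytic subunits, *Ppp3ca*, which encodes the main neuronal calcineurin A subunit, was at 841, 860 and 852 CPM in control replicates 1, 2 and 3. It was at 759, 827 and 826 CPM in *Mef2c* cKO replicates 1, 2 and 3. All 3 *Mef2c* cKO values were below the controls, with the lowest in the 14-week-old mouse. The log2 fold change was -0.08 (95% interval -0.22 to 0.05, adjusted p = 0.402, limma), so that a change beyond the cut-off of 0.3 lay outside the interval.

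*Ppp3cb*, which encodes the beta catalytic subunit, was at 347, 304 and 281 CPM in the controls and at 293, 326 and 330 CPM in the *Mef2c* cKO mice. The genotypes overlapped, and the 14-week-old and the 12-week-old mice differed in direction. In the 14-week-old pair *Mef2c* cKO was at 0.847 times the control, and in the 12-week-old mice at 1.12 times. The fitted log2 fold change was 0.03 (95% interval -0.16 to 0.22, adjusted p = 0.861, limma).

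*Ppp3cc*, the catalytic subunit gene with the lowest level here, was at 27.7, 31.7 and 27.9 CPM in controls and at 24.5, 26.3 and 23.9 CPM in *Mef2c* cKO mice. The values did not overlap, but the difference did not pass the adjusted cut-off (log2 fold change -0.22, 95% interval -0.41 to -0.04, adjusted p = 0.103, limma). Per kilobase of exons, *Ppp3ca* made up 71.5% ± 1.94 of the summed catalytic level in controls and 70.5% ± 0.155 in *Mef2c* cKO mice (SD, n = 3). *Ppp3cb* made up 23.9% ± 2.11 and 25.4% ± 0.357, and *Ppp3cc* 4.60% ± 0.345 and 4.11% ± 0.245. With this length, the composition of the catalytic subunits at the RNA level thus differed between genotypes by less than 2 percentage points. The shares themselves depend on the length used. With the longest transcript as the length, *Ppp3cb* in controls was at 81.1 instead of 51.6 CPM per kilobase, and *Ppp3ca* at 179 instead of 154. Their summed level was 216 ± 4.52 CPM per kilobase in controls and 207 ± 10.5 in *Mef2c* cKO mice.

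*Ppp3r1*, which encodes the calcium-binding regulatory subunit, was at 916, 898 and 803 CPM in control replicates 1, 2 and 3. In *Mef2c* cKO replicates 1, 2 and 3 it was at 931, 1048 and 1097 CPM. The genotypes did not overlap, though the 14-week-old pair was nearly level, at 1.02 times the control, against 1.26 times in the 12-week-old mice. The log2 fold change was 0.23 (95% interval 0.05 to 0.41) and did not pass (adjusted p = 0.0882, limma). In the gencode annotation, 14.3% of the exon bases of *Ppp3r1* are shared with *Wdr92* on the same strand, which was at 28.2 CPM in controls and 28.7 CPM in *Mef2c* cKO mice. The handling of reads there is not given in the sources used here. Set against the catalytic subunits within each mouse, the level of *Ppp3r1* per kilobase was 1.29, 1.28 and 1.18 times their sum in controls and 1.48, 1.52 and 1.60 times in *Mef2c* cKO mice. The ratio did not overlap between genotypes, and no test was run on it. Like the other ratios per kilobase of exons here, its size depends on the length used.

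**Figure D2:**
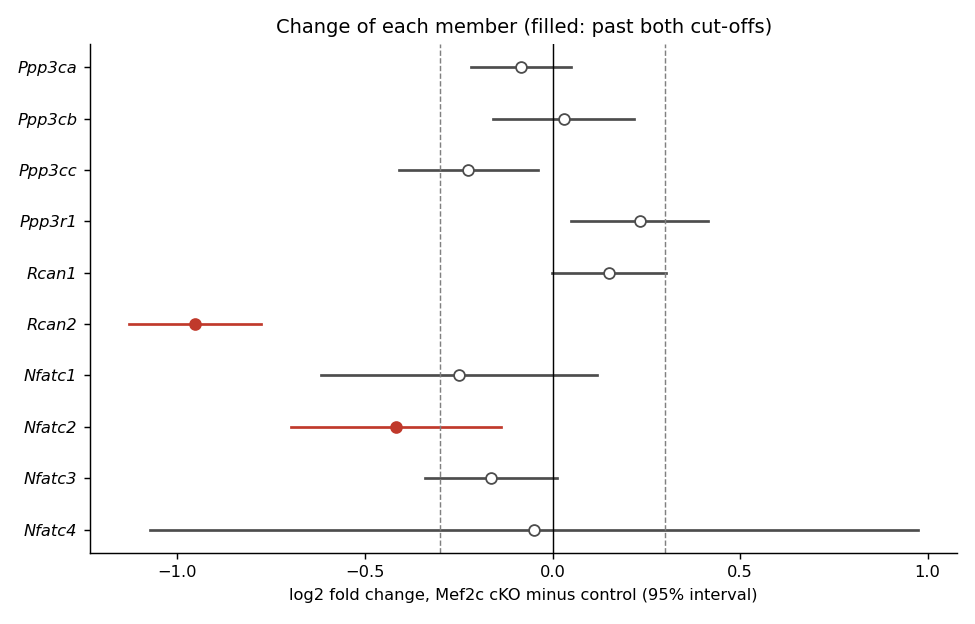
Log2 fold change of each member in *Mef2c* cKO against control cortex, as points with 95% intervals from limma. Dashed lines mark 0.3 in either direction, and filled red points are past both cut-offs. The interval of *Rcan2*, -1.13 to -0.78, lies wholly beyond the line at -0.3, while that of *Nfatc2*, -0.70 to -0.14, crosses it, and that of *Nfatc4*, at about 1 CPM, spans the plot.

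*Rcan2*, a calcineurin regulator that is abundant in brain (chr17:43938800-44176465, plus strand, mm9), showed the largest change among the members. It was at 279, 261 and 244 CPM in control replicates 1, 2 and 3, and at 122, 142 and 142 CPM in *Mef2c* cKO replicates 1, 2 and 3. The highest *Mef2c* cKO value was well under the lowest control. These values rest on 2749 to 12875 reads per mouse, so counting error is small beside the spread between mice. In log2 terms the fold change was -0.95 (SE 0.078, adjusted p = 5.44e-05, limma). In the 14-week-old pair *Mef2c* cKO was at 0.436 times the control, and among the 12-week-old mice, with 2 of each genotype, at 0.562 times. A fit on the 12-week-old mice alone gave -0.83 (SE 0.069, adjusted p = 0.000817, limma).

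*Rcan1*, the regulator gene best known for its induction by calcineurin and NFAT, did not follow *Rcan2*. It was at 51.4, 48.9 and 52.3 CPM in controls and at 58.7, 52.6 and 58.5 CPM in *Mef2c* cKO mice. The lowest *Mef2c* cKO value, in replicate 2, lay just above the highest control. The log2 fold change was 0.15 (95% interval -0.0003 to 0.30) and was not called (adjusted p = 0.176, limma). Gene-level reads do not tell apart the transcripts from the first and the internal *Rcan1* promoter shown above.

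The Rcan genes were also compared with each other within each mouse. Per kilobase of exons, *Rcan2* was at 3.56, 3.49 and 3.06 times the level of *Rcan1* in control replicates 1, 2 and 3. The ratio was 1.36, 1.77 and 1.59 in *Mef2c* cKO replicates 1, 2 and 3, with no overlap. The summed level of *Rcan1* and *Rcan2* was 88.6 ± 4.48 CPM per kilobase in controls and 57.9 ± 2.56 in *Mef2c* cKO mice (SD, n = 3). Relative to the summed catalytic subunits, the pair was at 0.410 ± 0.0135 in controls and 0.280 ± 0.00612 in *Mef2c* cKO mice. These ratios contain the called change of *Rcan2* and are given as a description. *Rcan3*, the other member of the family, was at 39.9 ± 2.15 CPM in controls and 39.6 ± 2.89 CPM in *Mef2c* cKO mice (log2 fold change -0.01, adjusted p = 0.945, limma).

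**Figure D3:**
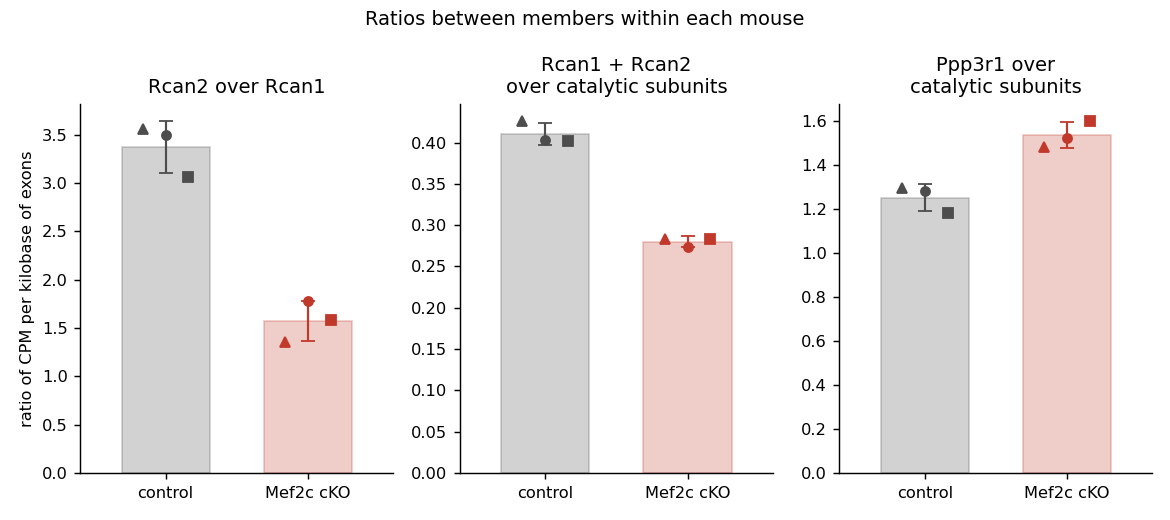
Ratios of levels per kilobase of exons within each mouse, with bars at the mean of 3 mice, error bars of 1 SD and symbols as in the plot of CPM by mouse. *Rcan2* over *Rcan1* averages 3.37 in controls and 1.57 in *Mef2c* cKO mice, and *Ppp3r1* over the catalytic subunits 1.25 and 1.53.

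The NFAT genes encode the transcription factors that calcineurin activates, and they were the least expressed members. *Nfatc3* had the highest level among them, at 16.7, 16.9 and 17.8 CPM in controls and 15.0, 15.5 and 15.4 CPM in *Mef2c* cKO mice. The values did not overlap, and the log2 fold change of -0.16 (95% interval -0.34 to 0.01) did not pass (adjusted p = 0.207, limma). Of its exon bases, 3.53% are shared with *Esrp2* on the opposite strand, which was below 0.1 CPM in both genotypes.

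*Nfatc2* was at 8.91, 9.33 and 9.97 CPM in control replicates 1, 2 and 3 and at 8.19, 6.68 and 6.30 CPM in *Mef2c* cKO replicates 1, 2 and 3. All *Mef2c* cKO mice were below the controls, with the 14-week-old mouse the closest to them. In limma the log2 fold change was -0.42 (SE 0.124, adjusted p = 0.0498, limma), just inside the cut-off. The 14-week-old pair differed less, at 0.919 times the control, than the 12-week-old mice, at 0.672 times. The call was lost without any 1 of control replicates 1, 2 and 3 or *Mef2c* cKO replicates 2 and 3 (adjusted p = 0.0824, 0.116, 0.153, 0.121 and 0.144, limma), and it was kept without *Mef2c* cKO replicate 1 (adjusted p = 0.0213).

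*Nfatc1* was at 4.47, 4.68 and 4.73 CPM in controls and at 4.12, 3.05 and 4.62 CPM in *Mef2c* cKO mice. The genotypes overlapped, and the low value belongs to *Mef2c* cKO replicate 2, the library with the fewest reads, where it rests on 59 reads. The log2 fold change was -0.25 (95% interval -0.62 to 0.12, adjusted p = 0.363, limma). *Nfatc4* was near the limit of detection, at 0.794, 1.03 and 1.51 CPM in controls and 1.83, 0.414 and 1.39 CPM in *Mef2c* cKO mice. With 8 to 78 reads per mouse its log2 fold change of -0.05 had a 95% interval of -1.07 to 0.97 (adjusted p = 0.96, limma). The interval is too wide to tell a rise from a fall, and the part of depth in its width was not tested.

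Per length, the members spanned from 270 CPM per kilobase of exons for *Ppp3r1* to 0.277 for *Nfatc4* in controls. The order in controls was *Ppp3r1*, *Ppp3ca* (154), *Rcan2* (68.3), *Ppp3cb* (51.6), *Rcan1* (20.3), *Ppp3cc* (9.93), *Nfatc3* (2.77), *Nfatc2* (0.889), *Nfatc1* (0.622) and *Nfatc4*. In controls, neighbours in this order did not overlap between mice. In *Mef2c* cKO mice *Rcan2* (35.3) was below *Ppp3cb* (52.6), and *Nfatc1* overlapped both *Nfatc2* and *Nfatc4*. The place of *Rcan2* above *Ppp3cb* in controls depended on the length used, since with the longest transcript as the length *Rcan2* was at 77.7 and *Ppp3cb* at 81.1 CPM per kilobase.

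**Figure D4:**
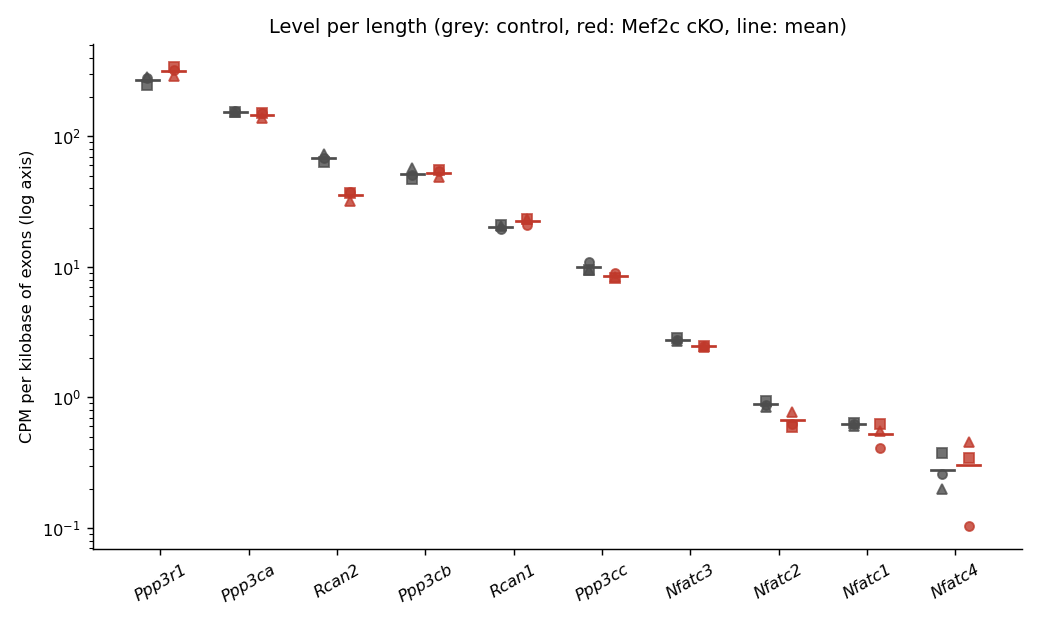
CPM per kilobase of exons of each member in each mouse, on a log axis, ordered by the mean of the controls, with lines at the mean of 3 mice. The subunits and Rcan genes lie between 8.14 and 340 CPM per kilobase and the NFAT genes between 0.103 and 2.87, and *Rcan2* is the member whose genotypes are most clearly apart.

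The other genes of the pathway were taken as 4 lists with 54 genes, of which 52 were tested. In these lists 5 genes were called lower and 4 higher, or 9.62% and 7.69% of those tested, beside 7.78% and 5.88% of all genes. The calls fell in the lists of calcineurin substrates and of calcium entry, and the other lists held none. The median log2 fold change was -0.12 over the 10 members and 0.0079 over all tested genes.

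Of the related subunits and calcineurin partners, 0 of 10 tested genes were called by limma (0 with voom weights), and 2 were lower at an unadjusted p-value under 0.05. Their median log2 fold change was -0.07. *Calm2* and *Calm3*, which encode calmodulin, the protein that switches calcineurin on, were at 1118 ± 66.8 and 1513 ± 81.5 CPM in controls. In *Mef2c* cKO mice they were at 1028 ± 139 and 1510 ± 134 CPM. *Ppia*, which encodes cyclophilin A, the target of cyclosporin, was at 1267 ± 45.8 and 1266 ± 43.9 CPM. The genotypes overlapped for all of these. *Ppp3r2*, the testis form of the regulatory subunit, had 0 reads in every mouse.

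Of the NFAT kinases and partners, which include the enzymes that phosphorylate NFAT and return it to the cytoplasm, 0 of 15 were called by limma (0 with voom weights), with a median of -0.02. At an unadjusted p-value under 0.05, 2 were lower and 2 higher. *Gsk3b* was at 297 ± 25.0 CPM in controls and 292 ± 12.9 CPM in *Mef2c* cKO mice. *Csnk1a1*, a casein kinase gene, was at 257 ± 14.1 and 266 ± 17.6 CPM, and *Mapk10*, a JNK gene, at 502 ± 11.2 and 504 ± 13.6 CPM. *Mapk9*, also a JNK gene, was at 342 ± 17.4 CPM in controls and 279 ± 20.2 CPM in *Mef2c* cKO mice without overlap. Its log2 fold change of -0.295 was just short of the cut-off (adjusted p = 0.0182, limma).

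Of the known calcineurin substrates, 1 of 14 tested genes was called lower and 3 higher, with a median of 0.10. *Gria1*, an AMPA receptor subunit gene, rose from 281 ± 24.9 to 439 ± 38.6 CPM (log2 fold change 0.64, adjusted p = 0.000821, limma). *Mef2d*, which encodes another MEF2 factor, rose from 139 ± 2.27 to 177 ± 6.97 CPM (log2 fold change 0.35, adjusted p = 0.00182). It kept its call in all 18 alternative fits, whereas the paper, which used DESeq, reported no significant change of *Mef2d*. The reason for the difference was not tested. *Ppp1r1a*, which encodes an inhibitor of protein phosphatase 1, rose from 42.6 ± 7.76 to 57.7 ± 2.55 CPM (log2 fold change 0.45, adjusted p = 0.025). That call was lost without any 1 mouse except control replicate 2 (adjusted p = 0.0528 to 0.0865). Among those not called, *Dnm1*, the dynamin of synaptic vesicle retrieval, was at 1764 ± 157 and 2102 ± 59.3 CPM (adjusted p = 0.0569). *Itpr1* was at 949 ± 24.0 and 854 ± 75.1 CPM, and *Synj1* at 499 ± 34.2 and 533 ± 29.0 CPM.

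Of the genes for calcium entry, 4 of 13 were called lower and 1 higher, with a median of -0.25. *Orai2*, which encodes a pore subunit of the store-operated calcium channel, rose from 46.2 ± 2.29 to 79.5 ± 4.12 CPM (log2 fold change 0.78, adjusted p = 6.4e-05, limma). *Stim1*, which encodes the calcium sensor that opens Orai channels, fell from 81.7 ± 5.49 to 63.7 ± 3.82 CPM (log2 fold change -0.36, adjusted p = 0.0084). Thus the sensor and a pore subunit of the same channel moved in opposite directions, while *Stim2* was at 79.6 ± 2.70 and 82.0 ± 1.72 CPM (adjusted p = 0.676). *Grin2a*, an NMDA receptor subunit gene, fell from 97.6 ± 14.1 to 70.6 ± 12.5 CPM (log2 fold change -0.47, adjusted p = 0.0407). The call on *Grin2a* was lost without control replicate 1 or 3 or *Mef2c* cKO replicate 2 or 3 (adjusted p = 0.0716 to 0.128). *Cacna1s*, a calcium channel gene known from muscle, was at 0.942 ± 0.324 and 0.253 ± 0.0541 CPM, with 6 to 11 reads per *Mef2c* cKO mouse (adjusted p = 0.00511). All its *Mef2c* cKO values were below the filter of 0.5 CPM, so it was tested only through the controls. A call could hardly be other than lower, yet it is 1 of the 4 lower calls here and of the 5 over the pathway lists. With a filter at a mean of 1 CPM it was not tested. *Grin1* was at 753 ± 39.3 and 693 ± 36.8 CPM, *Grin2b* at 135 ± 14.9 and 131 ± 10.1 CPM, and *Cacna1d* at 130 ± 13.4 and 107 ± 6.37 CPM, and none of these was called.

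In these bulk samples, fewer cells of a type and less RNA per cell cannot be told apart. Markers of cortical excitatory neurons were present in all mice, and their summed level was 5714 to 6825 CPM in controls and 5946 to 7025 CPM in *Mef2c* cKO mice. Of these 8 markers 1 was called lower and 4 higher. The lower one was *Emx1*, the gene into which Cre was inserted in the *Mef2c* cKO mice. The 8 astrocyte markers summed to 4759 to 5053 CPM and 4200 to 4470 CPM without overlap (1 lower, 2 higher), and the 8 microglia markers to 220 to 245 CPM and 205 to 215 CPM (0 called by limma or with voom weights, 3 lower at an unadjusted p-value under 0.05). The 8 oligodendrocyte markers summed to 3273 to 5339 CPM and 5273 to 6772 CPM (0 lower, 2 higher). At an unadjusted p-value under 0.05 from limma, 7 of these 8 were higher, and the median log2 fold change of the 8 was 0.53. The 8 interneuron markers summed to 738 to 835 CPM and 782 to 854 CPM (1 lower, 2 higher). Endothelial markers (0 of 8 called), mural and meningeal markers (1 of 8), striatal markers (1 of 7), choroid plexus (0 of 3) and blood markers (0 of 2) and activity-induced genes (1 of 8) had summed levels that overlapped between genotypes. No list was at 0, and at an unadjusted p-value under 0.05 limma had 1 endothelial, 1 choroid plexus and 0 blood markers. The part of these shifts in the changes of *Rcan2*, *Nfatc2* and the pathway genes was not tested.

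The genes whose levels over the 6 mice were most like *Ppp3ca*, among 10353 tested genes of at least 10 CPM, were *Asphd1* (Pearson's r = 0.988), *Ltk* (0.984) and *Slc35f5* (0.983). Those most opposed were *Lsg1* (-0.995), *Pcyox1l* and *Lipa* (both -0.987). For *Rcan1* the most alike were *2310022B05Rik* (0.991), *Notch1* (0.989) and *Tanc1* (0.981), and the most opposed were *Rgp1* (-0.997), *Abca3* (-0.991) and *Eml4* (-0.990). The points of each correlation share the genotype and the library, and these values are the extremes of many genes over 6 mice.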

How the data were processed

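RNA-seq reads from 3 control and 3 *Mef2c* cKO mice were aligned by the authors to mm9 with TopHat and Bowtie, after polyA selection and directional library preparation, and counted per gene with HTSeq, whose strand setting is not given in the sources used here. The deposited tables, 1 per mouse, hold the RPKM that the authors computed from these counts.

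Each RPKM value was a whole number of reads over 1 of 65 to 296 lengths that cycle along the genes ordered by identifier. Whole reads were recovered for 98.99% to 99.34% of values above 0, holding 99.97% to 99.98% of the sample total, and all 10 members were placed by that order. In 4 simulated tables, 99.96% to 99.98% of values were given a count, and 100% of these were right. Rows without a gene name (0.053% to 0.078% of reads) were left out.

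Genes above 0.5 CPM in every mouse of at least 1 genotype were fitted with limma 3.58.1 in R 4.3.3 (lmFit, eBayes with trend) on log2(CPM + 0.1), which understates changes of low genes. In simulated data on 14620 genes, 89% of 100 genes changed by 0.5 and 100% of 100 changed by 1 (log2) were called, with 12 unchanged genes called. The simulation gave every gene the same small dispersion and changed only genes above 1 CPM. These shares need not hold for genes that vary more between mice, such as *Nfatc1* and *Nfatc4*. The design planned a fit on recovered reads, with log2(RPKM + 0.1) to be fitted if reads could not be recovered. No count model was used. Members and lists were chosen with earlier results of these data known. Genes named are all members, every called gene of the 4 pathway lists with up to 4 others of highest mean level, and the 3 most and 3 least correlated genes for *Ppp3ca* and *Rcan1*. Some genes of the pathway lists are counted but not reported here by name. The labels do not say whether replicates came from separate litters, and each is a separate mouse. Whether replicate numbers pair the mice is not known either, beyond the shared age of replicate 1. Lengths and positions are from gencode annotation of NCBIM37 (mm9), which is not the annotation used by the authors.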

Additional observations from a re-analysis of the deposited data

How the results depend on the processing

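The fits below changed 1 choice at a time. The 18 alternatives on the recovered reads were pseudocounts of 0.5 and 1, other filters and scalings, other limma settings, the age and replicate terms, the 12-week-old mice alone and leaving out each mouse, and voom weights, which were added after seeing the data. They left the direction of *Ppp3ca*, *Ppp3cc*, *Ppp3r1*, *Rcan1*, *Rcan2*, *Nfatc1*, *Nfatc2* and *Nfatc3* as it was. *Rcan2* ranged from -1.0003 to -0.83 (adjusted p = 1.52e-05 to 0.00141, limma). *Ppp3cb* ranged from -0.0394 to 0.11 on leaving out a mouse, and *Nfatc4* -0.43 and 0.52. *Nfatc4* was also above 0 with a pseudocount of 0.5 (0.0033) or 1 (0.0201) and with voom weights (0.0536). The member count fell from 2 to 1 lower, by the loss of *Nfatc2*, with no filter on level (adjusted p = 0.0739), no variance trend (0.0564) or an age term (0.0689), and was 1 to 2 on leaving out each mouse. It remained 0 higher in every fit. On the 12-week-old mice alone 572 genes were higher, against 859. Without each mouse in turn, 893 to 1081 genes were lower and 684 to 870 higher. With the replicate number as a block, 973 genes were lower and 721 higher, and 1 member, *Rcan2*, was lower (log2 fold change -0.95, adjusted p = 0.000872), while *Nfatc2* was not called (adjusted p = 0.111). Deviations of same-numbered mice correlated at -0.18, -0.11 and -0.08. These values showed no pairing by number, but so few mice cannot decide whether the numbers stand for litters or batches. On the deposited RPKM as they are, 5 genes were lower and 9 higher and 0 members were called, with *Ppp3ca* at 0.69, *Ppp3cb* at -1.14 and *Rcan2* at -0.27. There the lengths differ between mice by construction. *Nfatc4* and *Nfatc1* had the fewest reads of the members, at 8 to 78 and 59 to 250 per mouse, and the effect of depth on them was not tested.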
